A study of Homo sapiens with 30 samples.

Results

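The PARP family transcripts described here were those of PARP1, PARP2, PARP3, PARP4, PARP8, PARP9, PARP10, PARP12 and PARP14, together with DTX3L, the ubiquitin ligase that partners PARP9. The 10 genes were found by symbol, and all 10 were present among the 61471 rows of each of 2 tables, 1 for U87 and 1 for U251, in TPM, a transcript level scaled for gene length and library total. Both are established human glioblastoma cell lines. The methods place both among lines that are often misidentified, and state no re-authentication after receipt. RNA-seq covered 5 groups of each line: Untreated (labelled day 3, but collected on day 0 in the methods text), IFN-γ for 3 days (D3), 14 days (D14) or 28 days (D28), and D28WO, in which cells received IFN-γ for 14 days and were then kept without it until day 28. The labels give the dose as 1 µg/mL in the protocol and 1 µL/mL in the sample descriptions, and the methods text gives another, so neither the dose nor the day of the control is settled here, and D14, D28 and D28WO have no Untreated group of their own day. No genetic change is stated for any group.

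Each group had 3 libraries, except D3 and D14 of U87, which had 2, because a pair of U87 columns shared a name and was left out. That left 13 U87 and 15 U251 libraries. TPM values keep no record of read depth, so counting error could not be given, and the number of libraries sets the precision. Replicates are described as separate culture preparations. After a filter at a mean of 0.5 TPM, which all 10 genes passed in each line, 22918 genes were tested in U87 and 23667 in U251 with limma on log2(TPM + 1). A gene is said below to have risen or fallen where its Benjamini-Hochberg adjusted p over all tested genes was under 0.05, and to have done so past the fold limit where the log2 fold change was also beyond 1 in size. The lines were normalized in separate tables and were never compared in a test.

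Some groups need describing before the results. In U87, the transcript of the interferon-response factor IRF1 was not raised in the libraries labelled D14: it stood at 122 ± 17.1 TPM (SD, n = 2) against 133 ± 2.78 TPM in Untreated (n = 3). Whether the D14 label of these U87 libraries is right was not settled here, and this bears on each U87 value at D14 and each U87 step to or from it. In U87 libraries labelled D28WO, IRF1 stood at 510 ± 46.5 TPM (n = 3), near the 480 ± 51.7 TPM of D28, although their labels state withdrawal of IFN-γ. U251 gave higher IRF1 in all 4 exposed groups, at 300 to 620 TPM in group means against 141 TPM in Untreated; its D28WO mean, 620 ± 38.7 TPM, was likewise near the 603 ± 61.6 TPM of D28. Of 6 glial and neural stem genes, U87 had group means of at most 0.219 TPM for SOX2, 0.763 to 2.94 TPM for S100B, 4.84 to 14.2 TPM for GFAP, 4.68 to 26.7 TPM for OLIG2, 23.2 to 45.2 TPM for NES and 1022 to 1307 TPM for VIM. U251 had SOX2 at 116 to 173 TPM, S100B at 43.1 to 184 TPM, NES at 64.2 to 168 TPM, VIM at 641 to 1141 TPM and OLIG2 at most at 1.10 TPM, and its GFAP went from 1258 TPM in Untreated to 243 TPM at D28. The leukocyte genes PTPRC, CD3E and MS4A1 stayed under 1 TPM in group means of both lines. CD14 went from 0.569 TPM in Untreated U251 to 4.51 TPM at D3 and 2.16 to 3.25 TPM in the later groups, and stayed at or below 0.572 TPM in U87. NKG7 reached 1.64 TPM in U87 (D14) and 1.33 TPM in U251. CSF1R, a myeloid marker, was at 55.2 TPM in Untreated U87 and 16.9 TPM in D28WO, and at 2.28 to 3.33 TPM in U251. Of the endothelial genes, CDH5 went from 27.6 TPM in Untreated U251 to 0.565 TPM at D3, and PECAM1 stayed at or below 2.04 TPM. The part of these genes in the results was not tested.

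PARPs, also called ADP-ribosyltransferases, move ADP-ribose from NAD onto proteins. PARP1 and PARP2 build long chains at DNA breaks and are the targets of clinical PARP inhibitors, whereas most other members add a single unit. PARP9, PARP14 and DTX3L belong to the interferon response: PARP9 and PARP14 carry macrodomains that bind ADP-ribose, and PARP9 works as a complex with DTX3L.

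DTX3L, PARP9 and PARP14 also lie within 202917 bases of one another on chromosome 3. In GENCODE v44 (GRCh38), PARP9 covers chr3:122527924-122564577 on the minus strand and DTX3L chr3:122564338-122575203 on the plus strand, so that the 5′ ends of the 2 genes share 240 bases head to head. PARP14 lies on the plus strand at chr3:122680839-122730840, 105635 bases beyond the end of DTX3L. Strand use in the authors' counting is not stated in the sources used here, so reads from the shared 240 bases could not be assigned to PARP9 or DTX3L with certainty.

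RefSeq promoter windows of 300 bases (GRCh38.p14, 250 before to 50 after the start) were found for 8 of the 10 genes, 11 windows in all, but not for PARP4 and PARP10. They were searched on both strands for the core of the interferon-stimulated response element (GAAA, any 2 bases, then GAAA) and for the gamma-activated site (TTC, any 3 bases, then GAA). The first was present in 3.57% and the second in 7.66% of 35116 windows. Of the members, 4 had a response element core (DTX3L, PARP9, PARP12 and PARP14) and 2 a gamma-activated site match (PARP14 and PARP2). The matches of DTX3L and PARP9 are the same 10 bases, chr3:122564332-122564341, read from opposite strands; they begin 6 bases before the DTX3L start and end 32 bases before a PARP9 start. The sequences are shown because they hold the matches of 4 members that rose past the fold limit in at least 1 line; matches are in capitals, and in PARP14 the gamma-activated match comes first and the response element core after it. The windows are chr3:122564320-122564349 for DTX3L (plus strand) and PARP9 (minus strand), chr3:122680739-122680838 for PARP14 (plus strand) and chr7:140062952-140063051 for PARP12 (minus strand), the last 2 ending just before the start.
DTX3L: ctccagggaagcGAAACTGAAActttgcgc
PARP9: gcgcaaagTTTCAGTTTCgcttccctggag
PARP14: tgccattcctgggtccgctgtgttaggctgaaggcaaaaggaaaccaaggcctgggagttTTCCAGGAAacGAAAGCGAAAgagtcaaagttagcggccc
PARP12: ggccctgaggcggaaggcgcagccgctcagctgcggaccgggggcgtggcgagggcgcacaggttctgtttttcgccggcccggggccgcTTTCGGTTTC

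The windows of PARP1, PARP3 and PARP8 and the other PARP9 window held neither motif. The match in PARP2 is at chr14:20343481-20343489, 154 to 146 bases before its start. PARP2 did not pass the test against Untreated in U87, and in U251 it rose at D28 (0.37, adjusted p = 0.0373) and fell at D28WO (-0.40, adjusted p = 0.0361). A match is a description of letters and was not tested as a binding site.

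In U87, PARP3, PARP8, PARP9, PARP10, PARP12, PARP14 and DTX3L rose on adjusted p at D3, D28 and D28WO, and no member did at D14. Past the fold limit, 5 of 10 members rose at D3 (PARP14, PARP12, PARP9, PARP10 and DTX3L), where 5.85% of all tested genes did so. At D28 and at D28WO 6 of 10 rose, with PARP8 added, against 6.77% and 12.8% of all genes. At D14 the count was 0 of 10 by limma, with or without the fold limit. Of all genes, 1.89% rose past the fold limit there, and 4.14% rose and 1.02% fell on adjusted p. At an unadjusted limma p under 0.05 there were 4 members (PARP3, PARP10, PARP12 and PARP14). The share of all genes at that unadjusted limit was not computed, here or for such counts below, so these counts are not read as results. No member fell past the fold limit against Untreated in either line; of all genes, 0.384%, 0.209%, 0.611% and 2.12% did so in U87 and 4.55%, 1.04%, 3.35% and 3.38% in U251 (D3 to D28WO in order). For D3, D14, D28 and D28WO in turn, the 10 members had median log2 fold changes of 1.02, 0.17, 1.21 and 1.26, beside 0.20, 0.15, 0.19 and 0.25 for all genes tested. The member values below are given without subtracting these all-gene medians.

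In U251, 1 to 3 members passed the fold limit against Untreated, and most rose or fell on adjusted p at D3, D28 and D28WO. Past the fold limit, PARP10 and PARP12 rose at D3 (2 of 10, against 9.72% of all genes), PARP12 alone at D14 (1 of 10, against 4.72%), PARP10 and PARP12 at D28 (2 of 10, against 11.9%), and these with DTX3L at D28WO (3 of 10, against 4.07%). On adjusted p alone, 6 members rose and 2 fell at D3, and 4 rose and 1 fell at D14. The D28 counts were 8 up and 1 down, and those of D28WO 6 up and 2 down. Of all genes, 24.9%, 13.8%, 25.9% and 14.3% rose and 16%, 7.31%, 14.7% and 13.4% fell on that criterion. The median log2 fold change of the 10 was 0.42, 0.20, 0.53 and 0.50 in the same order, beside 0.13, 0.10, 0.16 and 0.02 for all genes. In U87 the corresponding counts on adjusted p were 7 up at D3, 7 up at D28, and 7 up and 2 down at D28WO, where 12.4%, 17.2% and 28.6% of all genes rose. None fell at D3 or D28, where 4.28% and 6.55% of all genes did, against 13.4% at D28WO.

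**Figure D1:**
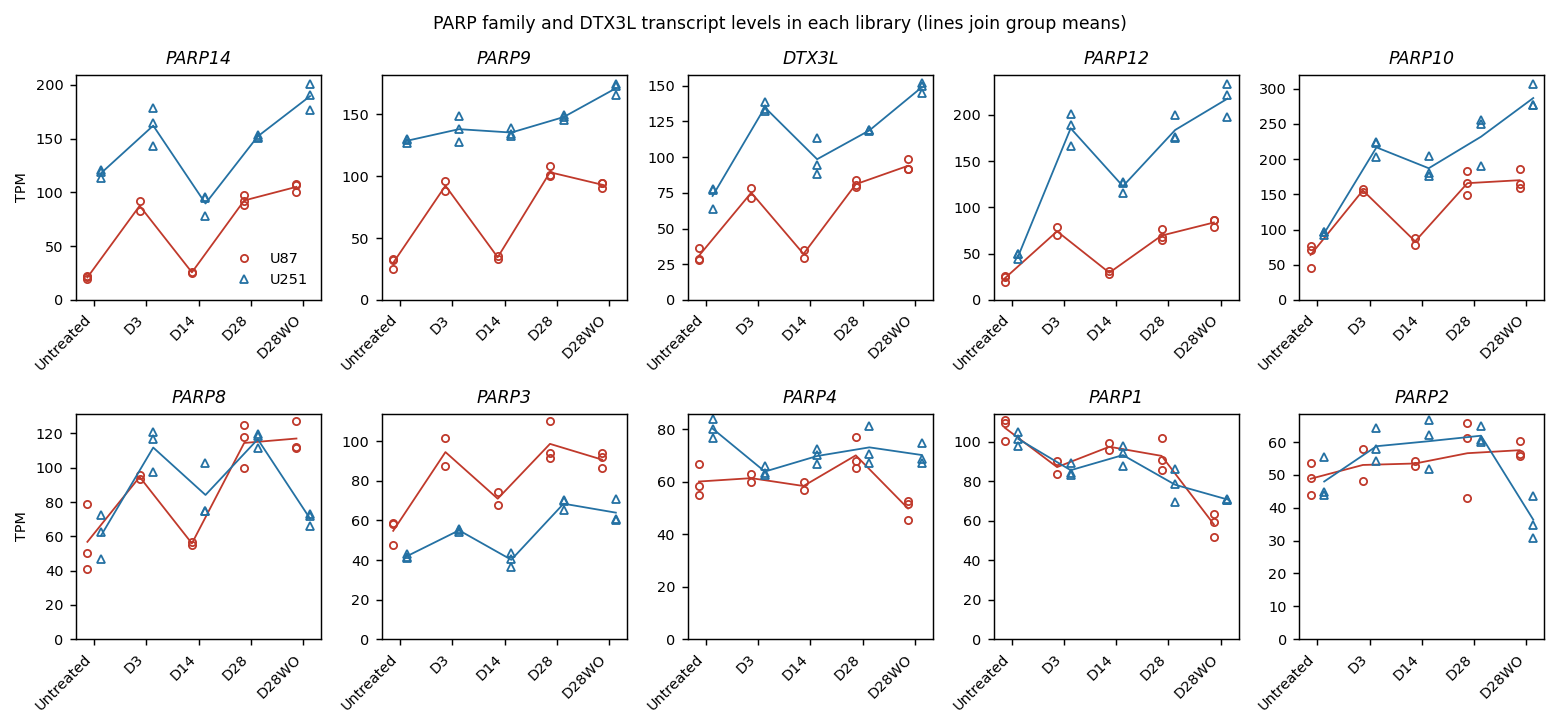
Level of each of the 10 genes in TPM (vertical axis from 0) in every library of U87 (circles) and U251 (triangles), by group, with lines joining group means. In U87 the points of PARP14, PARP9, DTX3L and PARP12 at D14 lie near those of Untreated and under those of D3, D28 and D28WO.

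**Figure D2:**
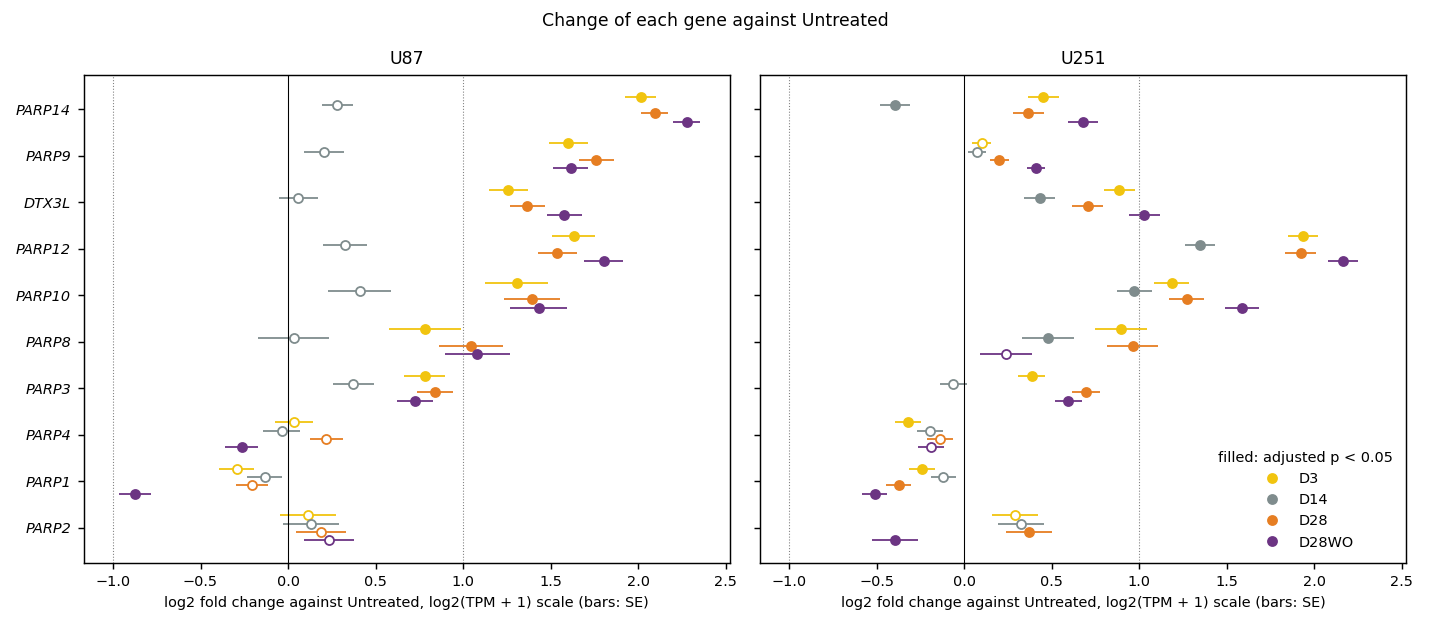
Log2 fold change against Untreated with its standard error for each gene and exposed group, in U87 (left) and U251 (right). Filled points had an adjusted p under 0.05, and dotted lines mark a log2 fold change of 1 in either direction; PARP12 and PARP10 lie to the right in both panels, while PARP14 and PARP9 lie beyond 1 only in U87, a difference between lines that was not tested.

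PARP14, which adds single ADP-ribose units and reads them through its macrodomains, had the largest fold change of the members in U87 at D3, D28 and D28WO. Its 3 Untreated libraries held 22.0, 19.5 and 21.2 TPM, and the 2 D3 libraries 92.0 and 83.1 TPM. At D14 the values were 25.9 and 25.3 TPM, at D28 98.0, 87.9 and 91.6 TPM, and at D28WO 107, 108 and 101 TPM. Every D3, D28 and D28WO library thus lay above every Untreated and D14 library. Relative to Untreated, the D3 libraries were 2.01 ± 0.09 higher on the log2 scale (SE, adjusted p = 9.01e-08), the D28 libraries 2.09 ± 0.08 (adjusted p = 1.29e-08) and the D28WO libraries 2.28 ± 0.08 (adjusted p = 6.98e-09). The D14 difference was 0.28 ± 0.09 (adjusted p = 0.0844). Among all U87 genes, 1.22% had a higher log2 fold change at D28.

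In U251, PARP14 started higher and moved less. Untreated libraries held 121, 113 and 119 TPM, D3 libraries 144, 179 and 164 TPM, and D14 libraries 95.1, 95.5 and 78.4 TPM. D28 held 154, 152 and 151 TPM and D28WO 177, 191 and 201 TPM. All 3 D14 libraries were thus below all 3 Untreated ones, and the other exposed groups were above. PARP14 fell at D14 by 0.40 on the log2 scale (SE 0.09, adjusted p = 0.00513) and rose by 0.45 ± 0.09 at D3 and 0.68 ± 0.09 at D28WO (adjusted p = 0.000829 and 4.46e-05). Its rise at D28, 0.37 ± 0.09 (adjusted p = 0.00387), was 0.25 with an adjusted p of 0.0553 under median-ratio scaling, in which each library is divided by the median ratio of its genes to their mean over libraries. From D14 to D28WO it rose past the fold limit, by 1.08 ± 0.09 (adjusted p = 9.84e-07).

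PARP9, the macrodomain partner of DTX3L with little catalytic activity of its own, followed PARP14 in U87. Untreated libraries held 32.3, 32.8 and 24.8 TPM, D3 libraries 88.3 and 96.2 TPM, and D14 libraries 35.5 and 33.4 TPM. D28 libraries held 100, 101 and 108 TPM, and D28WO libraries 94.2, 94.8 and 90.2 TPM. D3, D28 and D28WO did not overlap Untreated, and the log2 fold changes were 1.60 ± 0.11, 1.76 ± 0.10 and 1.61 ± 0.10 (adjusted p = 3.11e-06, 4.39e-07 and 4.63e-07). In U251 the same gene was the most abundant of the 10 in Untreated, at 129 ± 1.75 TPM (SD, n = 3), and did not pass the test at D3 (138 ± 10.5 TPM, adjusted p = 0.162) or D14 (135 ± 3.03 TPM, adjusted p = 0.381). PARP9 in U251 rose to 171 ± 4.97 TPM at D28WO, a log2 fold change of 0.41 ± 0.05 (adjusted p = 5.8e-05). At D28 it was 148 ± 1.93 TPM, 0.20 ± 0.05 above Untreated (adjusted p = 0.00876), close to the all-gene median of 0.16 in that comparison; under median-ratio scaling this became 0.08 (adjusted p = 0.393).

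DTX3L, the E3 ubiquitin ligase of the pair, rose in both lines. In U87 its Untreated libraries held 28.3, 36.0 and 28.6 TPM and its D14 libraries 34.7 and 29.7 TPM, which overlap. D3 held 71.5 and 78.7 TPM, D28 80.2, 83.7 and 79.2 TPM, and D28WO 98.5, 91.4 and 91.9 TPM. Those 3 groups lay above every Untreated library, with log2 fold changes of 1.26 ± 0.11, 1.37 ± 0.10 and 1.58 ± 0.10 (adjusted p = 2.21e-05, 2.93e-06 and 5.64e-07). U251 libraries held 77.1, 77.8 and 63.4 TPM in Untreated, 132, 134 and 138 TPM at D3, 88.0, 113 and 94.4 TPM at D14, 119, 119 and 118 TPM at D28, and 145, 152 and 150 TPM at D28WO. Every exposed U251 library was above every Untreated one. The U251 order was D28WO, D3, D28, D14 and Untreated, with log2 fold changes of 1.03 ± 0.09, 0.89 ± 0.09, 0.70 ± 0.09 and 0.43 ± 0.09 for the exposed groups (adjusted p = 1.12e-06, 2.89e-06, 2.46e-05 and 0.00358). The D28WO value left the fold limit under quantile (0.97) and median-ratio scaling (1.00, rounded up from under 1), and without Untreated replicate 3 (0.93).

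Because DTX3L and PARP9 act as a pair, their log2 ratio was taken in each library. In U251 Untreated it was -0.71, -0.73 and -1.01, so PARP9 was the more abundant transcript per length. In the 12 exposed U251 libraries the ratio ran from -0.60 to 0.05, above all 3 Untreated libraries, and its mean was -0.25 against -0.82. The difference of 0.57 had an exact two-sided permutation p of 0.0022, the smallest that the 455 splits allow. This test pooled the exposed groups, whose U251 means were -0.03 (D3), -0.46 (D14), -0.31 (D28) and -0.20 (D28WO). In U87 the mean was -0.18 in the 10 exposed libraries and 0.05 in the 3 Untreated ones. The difference of -0.23 had an exact two-sided permutation p of 0.0909. Without Untreated replicate 1, the only Untreated library under 0 at -0.19, the difference was -0.34 and the exact permutation p 0.0152. Without Untreated replicate 2 the difference was -0.19 (exact permutation p = 0.2273), and without Untreated replicate 3 it was -0.15 (exact permutation p = 0.3485). All D3 and D28 libraries of U87 lay below all 3 Untreated libraries, and D14 and D28WO overlapped them. By group, the U87 means were -0.29 (D3), -0.10 (D14), -0.34 (D28) and 0.01 (D28WO).

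**Figure D3:**
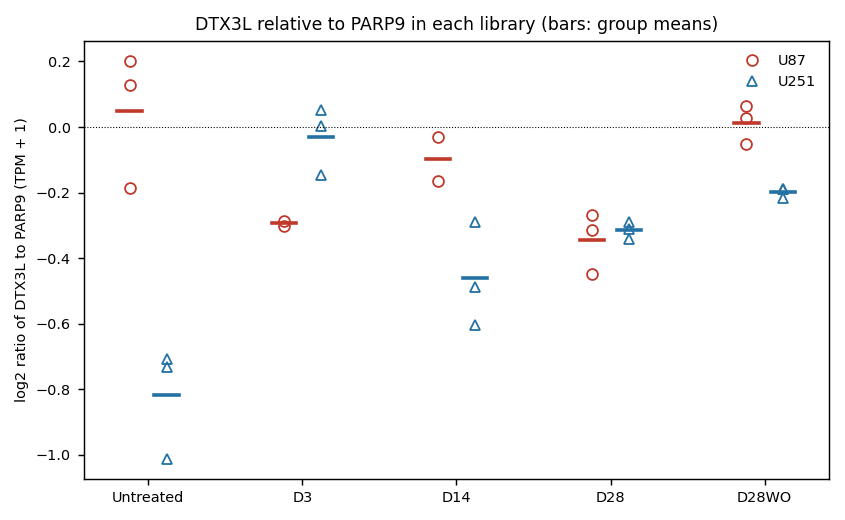
Log2 ratio of DTX3L to PARP9 (each TPM + 1) in every library, by group, for U87 (circles) and U251 (triangles); short bars are group means. The U251 Untreated libraries, at -0.71 to -1.01, lie below all 12 exposed U251 libraries, while the U87 libraries lie between -0.45 and 0.20, those of D3 and D28 below Untreated.

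PARP12, a mono-ADP-ribosyltransferase with antiviral activity, was past the fold limit in every U251 comparison with Untreated and in 3 of 4 in U87. In U251, Untreated libraries held 49.7, 49.5 and 44.0 TPM, D3 libraries 166, 189 and 201 TPM, D14 libraries 126, 127 and 115 TPM, D28 libraries 174, 176 and 200 TPM, and D28WO libraries 198, 221 and 233 TPM. All exposed libraries lay above all Untreated libraries, and D14 lay below D3, D28 and D28WO. The log2 fold changes were 1.93, 1.35, 1.92 and 2.16, each ± 0.09 (adjusted p = 9.42e-10, 1.45e-07, 8.9e-10 and 3.31e-10). In U87, PARP12 was at 25.8, 24.6 and 19.7 TPM in Untreated, 78.5 and 69.7 TPM at D3, 27.6 and 31.2 TPM at D14, 76.3, 68.0 and 64.2 TPM at D28, and 86.0, 78.5 and 86.3 TPM at D28WO. There the D3, D28 and D28WO fold changes were 1.63 ± 0.12, 1.54 ± 0.11 and 1.80 ± 0.11 on the log2 scale (adjusted p = 5.63e-06, 2.63e-06 and 4.34e-07), and the D14 value was 0.33 ± 0.12 (adjusted p = 0.147).

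PARP10, a mono-ADP-ribosyltransferase with RNA-binding and ubiquitin-interaction motifs, reached the highest level of any member. In U251 it stood at 95.9, 92.2 and 96.0 TPM in Untreated, 202, 223 and 225 TPM at D3, 205, 177 and 180 TPM at D14, 190, 256 and 250 TPM at D28, and 277, 276 and 307 TPM at D28WO. D28 and D3 were not distinguished by their ranges, and D28WO lay above them all. The log2 fold changes were 1.18, 0.97, 1.27 and 1.59, each ± 0.10 (adjusted p = 4.92e-07, 1.36e-05, 2.28e-07 and 3.91e-08). In U87, PARP10 was at 70.5, 76.3 and 44.9 TPM in Untreated, 158 and 153 TPM at D3, 77.9 and 88.5 TPM at D14, 183, 165 and 149 TPM at D28, and 165, 186 and 159 TPM at D28WO. Each of D3, D28 and D28WO stood above all Untreated libraries, by 1.31 ± 0.18, 1.39 ± 0.16 and 1.43 ± 0.16 on the log2 scale (adjusted p = 0.000697, 0.00013 and 3.72e-05). In the genome annotation PARP10 overlaps GRINA by 3360 bases on the opposite strand, so part of its reads are uncertain in an unstranded count.

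PARP8, a less studied mono-ADP-ribosyltransferase, rose in both lines at D28 and, of the D28WO groups, passed the test in U87 alone. In U87 it stood at 50.5, 79.1 and 40.8 TPM in Untreated, 118, 125 and 100 TPM at D28, and 127, 112 and 112 TPM at D28WO, with log2 fold changes of 1.05 ± 0.18 and 1.08 ± 0.18 (adjusted p = 0.00225 and 0.00063). These sat near the fold limit: under median-ratio scaling they were 0.86 and 0.85, under quantile scaling 0.94 and 0.97, and without Untreated replicate 3 they were 0.84 and 0.88. The D28 value was also 0.99 without Untreated replicate 1 and 0.98 without D28 replicate 2. PARP8 rose at D3 in U87 by 0.78 ± 0.20 (adjusted p = 0.0243), a value of 1.04 without Untreated replicate 2, with an adjusted p of 0.125 when only the 2 groups were fitted. In U251 it was at 72.3, 62.3 and 46.5 TPM in Untreated, 118, 120 and 112 TPM at D28, and 72.9, 66.1 and 72.0 TPM at D28WO, where it overlapped Untreated (adjusted p = 0.273). The U251 rises at D3 and D28, 0.89 ± 0.15 and 0.96 ± 0.15 (adjusted p = 0.000274 and 0.000149), passed the fold limit without Untreated replicate 1, at 1.03 and 1.10. At D14, PARP8 held 55.1 and 56.7 TPM in U87 (0.03 ± 0.20, adjusted p = 0.959) and 103, 74.8 and 75.0 TPM in U251, above all Untreated libraries there (0.48 ± 0.15, adjusted p = 0.0346); the U251 adjusted p was 0.0551 under median-ratio scaling, 0.117 when only the 2 groups were fitted, and 0.0607, 0.148 and 0.140 without Untreated replicate 2, Untreated replicate 3 and D14 replicate 1. From D28 to D28WO, PARP8 fell by 0.72 on the log2 scale in U251 (SE 0.15, adjusted p = 0.00238) and moved by 0.04 ± 0.18 in U87 (adjusted p = 0.931); the difference between the lines was not tested.

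PARP4, the vault-particle member, changed little. U87 group means ran from 49.8 ± 3.97 TPM at D28WO to 70.1 ± 6.09 TPM at D28, against 60.1 ± 5.95 TPM in Untreated (SD, n = 3 each). PARP4 fell at U87 D28WO by 0.26 (SE 0.10, adjusted p = 0.0431) and from D28 to D28WO by 0.48 on the log2 scale (SE 0.10, adjusted p = 0.00511). The first of these was 0.0611 without the filter on low values and 0.0758 when only the 2 groups were fitted, both as adjusted p. In U251 it fell at D3 by 0.32 (SE 0.07, adjusted p = 0.00312), from 80.3 ± 3.63 to 63.9 ± 1.78 TPM; its other U251 values against Untreated did not pass as deposited (adjusted p = 0.0758, 0.164 and 0.0731) and passed under median-ratio scaling (-0.29, -0.26 and -0.22). PARP4 lies within the annotated pseudogene TPTE2P6 on the opposite strand and has pseudogene copies of its own, PARP4P1 the highest of them at up to 1.35 TPM.

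Of the members that act in DNA break repair, PARP1 fell and PARP3 rose. PARP1, the main producer of ADP-ribose chains, was the most abundant member in Untreated U87, at 111, 100 and 110 TPM. It held 83.8 and 90.4 TPM at D3, 95.7 and 99.2 TPM at D14, 102, 90.9 and 85.7 TPM at D28, and 59.4, 51.6 and 63.4 TPM at D28WO. All 3 D28WO libraries lay below every other U87 library: PARP1 fell there by 0.87 against Untreated (SE 0.09, adjusted p = 2.04e-05) and by 0.67 against D28 (SE 0.09, adjusted p = 0.000664). At D3 and D28 the values were -0.29 ± 0.10 and -0.21 ± 0.09 (adjusted p = 0.0685 and 0.124), and under median-ratio scaling they passed, at -0.49 and -0.40 (adjusted p = 0.0189 and 0.0198). The D28WO change was -1.11 under that scaling, past the fold limit.

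In U251, PARP1 was at 97.7, 101 and 105 TPM in Untreated, 84.3, 89.2 and 83.2 TPM at D3, 86.4, 69.6 and 78.6 TPM at D28, and 70.7, 71.1 and 70.4 TPM at D28WO. These 3 groups lay below every Untreated library, and PARP1 fell by 0.24, 0.37 and 0.51 on the log2 scale, each with an SE of 0.07 (adjusted p = 0.0161, 0.000938 and 0.000115). At D14 it held 87.8, 94.3 and 97.6 TPM, also below every Untreated library, the lowest of which was at 97.7 TPM, and did not pass (-0.12 ± 0.07, adjusted p = 0.274).

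PARP2, the smaller relative that also makes chains at breaks, did not pass in any U87 comparison with Untreated, with group means of 48.8 to 57.5 TPM. In U251 it was at 44.7, 55.3 and 44.0 TPM in Untreated, 60.8, 65.0 and 60.0 TPM at D28 and 30.8, 43.7 and 34.7 TPM at D28WO. From D28 to D28WO, PARP2 fell by 0.77 in U251 (SE 0.13, adjusted p = 0.000645). Against Untreated the values were 0.37 ± 0.13 at D28 and -0.40 ± 0.13 at D28WO (adjusted p = 0.0373 and 0.0361); the first was 0.25 with an adjusted p of 0.142 under median-ratio scaling, and the second had an adjusted p of 0.0671 without the filter. PARP3, which adds single units at DNA breaks, rose in U87 at D3, D28 and D28WO, from 54.8 ± 6.37 to 94.6 ± 9.93, 98.7 ± 10.0 and 90.7 ± 3.85 TPM (adjusted p = 0.00114, 0.000209 and 0.000202). In U251 PARP3 rose from 41.9 ± 1.16 TPM to 55.0 ± 0.83 TPM at D3, 68.5 ± 2.68 TPM at D28 and 64.0 ± 5.82 TPM at D28WO (adjusted p = 0.00123, 7.92e-06 and 5.61e-05), and stood at 40.1 ± 3.49 TPM at D14.

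The order of the members by level changed with exposure. PARP1 made up 21.8% ± 3.31 of the summed TPM of the 10 genes in Untreated U87 and 6.33% ± 0.70 at D28WO (SD, n = 3), while the sum went from 497 ± 54.2 to 919 ± 11.9 TPM. In U251 the PARP1 share went from 12.8% ± 0.87 to 5.34% ± 0.23 and the sum from 794 ± 25.3 to 1325 ± 54.9 TPM. PARP9, PARP14 and DTX3L together were 16.5% ± 0.42 of the sum in Untreated U87 and 17.1% ± 1.44 at D14 (n = 2 there and at D3), against 29.1% ± 1.05 (D3), 29.3% ± 1.23 (D28) and 31.8% ± 0.52 (D28WO). In U251 their share was 40.2% ± 0.44 in Untreated and 38.4% ± 0.51 at D28WO, with lower means in the other groups, 33.0% ± 2.13 (D14), 34.0% ± 1.30 (D28) and 35.9% ± 0.83 (D3). In U87 the lowest of the 10 was PARP14 in Untreated and PARP4 at D28WO; in U251 it was PARP3 in Untreated and PARP2 at D28WO, and PARP10 was the highest at D28WO in both lines. Neighbours in these orders often overlapped: in U251 D28WO, PARP1, PARP8 and PARP4 stood at 70.7, 70.3 and 70.2 TPM, with SDs of up to 4.08 TPM.

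**Figure D4:**
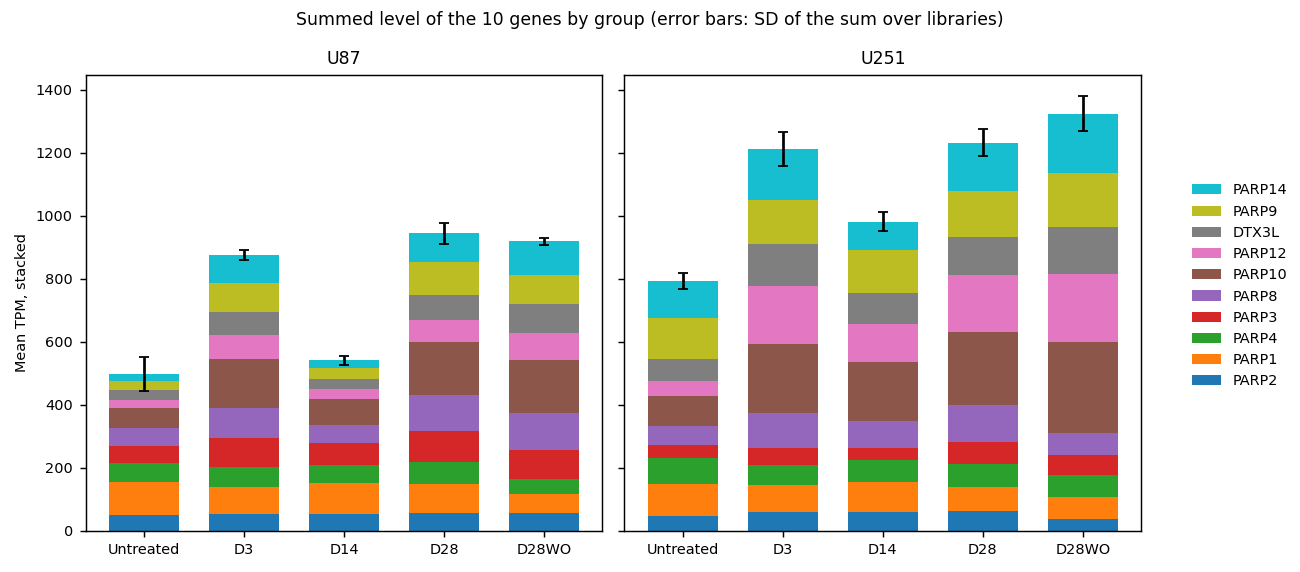
Group mean TPM of the 10 genes, stacked, by group for U87 (left) and U251 (right), with the SD of the sum over libraries as error bars. The U87 sum is 497 TPM in Untreated, 541 TPM at D14 and 875 to 945 TPM at D3, D28 and D28WO; the U251 sum is 794 TPM in Untreated and 981 to 1325 TPM in the exposed groups.

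Steps between exposed groups were tested in the same fits. In U87, PARP14, PARP9, PARP12 and DTX3L fell past the fold limit from D3 to D14 (4 of 10, against 2.05% of all genes, while 0.576% rose), by 1.73, 1.40, 1.30 and 1.20 on the log2 scale (SE 0.10, 0.12, 0.14 and 0.12). From D14 to D28, these 4 and PARP8 rose past it (5 of 10, against 1.78%, while 0.332% fell), PARP14 by 1.81 ± 0.09 (adjusted p = 2.32e-07). PARP8 was the least sure of them, at 1.02 ± 0.20 (adjusted p = 0.0156): its adjusted p was 0.132 without D14 replicate 2, 0.102 without D14 replicate 3 and 0.0526 without D28 replicate 2, and its value 0.99 without D28 replicate 1. PARP10, at 0.98 ± 0.18, passed without D14 replicate 3 or D28 replicate 3 (1.08 and 1.06). From D14 to D28WO, PARP14, PARP12, PARP9, PARP10, PARP8 and DTX3L rose past it (6 of 10, against 6.3%, while 3.39% fell). In the last step PARP10 lay at 1.02 ± 0.18, and at 0.93 without D14 replicate 2 or 0.96 without D28WO replicate 2, and PARP8 at 1.05 ± 0.20, and at 0.99 without D28WO replicate 1. Median-ratio scaling left 4 of the 6 past the fold limit in that step, with PARP10 at 0.97 and PARP8 at 0.99. These comparisons share the D14 libraries, in which IRF1 stood near Untreated and 1 of 4 interferon signal genes rose on adjusted p (4.14% of all genes). From D28 to D28WO, limma called no U87 member past the fold limit (3.11% of all genes rose and 2.42% fell), and on adjusted p PARP1 and PARP4 fell and no other member moved (8.44% of all genes fell and 9.9% rose), with 4 at an unadjusted p under 0.05.

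U251 had no member past the fold limit from D3 to D14, where 3.29% of all genes fell and 3.19% rose past it, from D14 to D28 (4.23% rose, 1.6% fell) or from D28 to D28WO (1.12% rose, 8.14% fell). On adjusted p, PARP3, PARP14, PARP12 and DTX3L fell from D3 to D14 (12.6% of all genes), PARP14 the most at 0.85 on the log2 scale (SE 0.09, adjusted p = 9.93e-06). From D14 to D28, 6 rose and PARP1 fell on adjusted p (11.3% and 9.48% of all genes). From D28 to D28WO, PARP9, PARP14, DTX3L, PARP10 and PARP12 rose on adjusted p (10.3% of all genes) by 0.21 to 0.32, and PARP2 and PARP8 fell (18.8%). PARP10 and PARP12 in that set had adjusted p of 0.112 and 0.108 under quantile scaling. From D14 to D28WO only PARP14 passed the fold limit (1 of 10, against 1.78% up and 5.38% down), and it was at 0.98 without D14 replicate 3.

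Of 8 further PARP genes, 0 passed the fold limit in U87 by limma, where 4 rose on adjusted p at D28 (17.2% of all genes; 5 at an unadjusted p under 0.05) and 6 at D28WO (28.6%). In U251, 2 of the 8 rose on adjusted p at D14 (13.8% of all genes), 5 at D3 and 4 at each of D28 and D28WO (24.9%, 25.9% and 14.3%), and 1, 1 and 2 of them passed the fold limit (9.72%, 11.9% and 4.07%). In U87, PARP11, a mono-ADP-ribosyltransferase, went from 16.5 ± 2.65 to 33.5 ± 3.83 TPM at D28 (log2 fold change 0.99 ± 0.14, adjusted p = 0.00059), and ZC3HAV1, the antiviral zinc-finger protein with an inactive PARP domain, from 37.2 ± 3.54 to 64.4 ± 5.70 TPM (0.78 ± 0.11, adjusted p = 0.00052). In U251, ZC3HAV1 rose past the fold limit from 51.4 ± 2.74 to 110 ± 1.16 TPM at D28 (1.09 ± 0.06), and PARP6 passed it at D3 and D28WO, with 187 ± 5.50 TPM in Untreated against 389 ± 6.14 and 386 ± 9.29 TPM. The list median at D28 was 0.44 in U87 and 0.19 in U251, beside 0.19 and 0.16 for all genes. Of the other Deltex ligases 3 of 4 were tested, and 1 of them, DTX2, passed the fold limit against Untreated in U87, at D28WO only (34.1 against 69.9 TPM; 12.8% of all genes rose past it). DTX3 also rose there on adjusted p (28.6% of all genes), as it did at D3 and D28. In U251, 0 of the 3 rose at D3 by limma, and DTX2 rose on adjusted p at D14, D28 and D28WO (1 of 3 each, against 13.8%, 25.9% and 14.3% of all genes), from 42.1 TPM in Untreated to 65.1, 66.2 and 61.8 TPM.

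Genes that remove ADP-ribose were read at D28 on adjusted p, where 17.2% of all genes rose in U87 and 25.9% in U251. Of 7 tested in U87, 1 rose, ADPRH, which cleaves ADP-ribose from arginine (8.35 against 15.4 TPM, adjusted p = 0.0088), and of 6 in U251 ADPRHL1 and ADPRS rose, ADPRHL1 from 1.53 to 3.28 TPM. None passed the fold limit at D28 by limma, against 6.77% of all genes that rose past it in U87 and 11.9% in U251 (1 gene in U87 and 3 in U251 had an unadjusted p under 0.05). At D3, 1 gene passed it in each line, ADPRH in U87 (8.35 against 19.3 TPM; 5.85% of all genes) and ADPRHL1 in U251 (1.53 against 4.30 TPM; 9.72%). PARG, which degrades the chains, rose in U87 at D28WO from 39.9 to 56.7 TPM (adjusted p = 0.00082) and in U251 at D3. In U87 at D28WO, MACROD1, a macrodomain hydrolase, rose past the fold limit from 22.3 to 52.6 TPM and ADPRHL1 fell past it from 9.93 to 3.42 TPM.

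PARP1 partners and strand break repair genes, 13 tested in each line, gave 0 past the fold limit at D28 by limma, with 2 up and 3 down on adjusted p in U87 (17.2% and 6.55% of all genes) and 4 up and 1 down in U251 (25.9% and 14.7%; 5 and 6 at an unadjusted p under 0.05). At D28WO, 2 of the 13 rose and 2 fell past the limit in U87 (12.8% and 2.12% of all genes), and 0 rose and 2 fell in U251 (4.07% and 3.38%). On adjusted p, 3 rose and 4 fell in U87 (28.6% and 13.4%) and 2 rose and 4 fell in U251 (14.3% and 13.4%). FEN1, the flap endonuclease, and LIG1, the replicative DNA ligase, were the 2 that fell past the limit in each line. FEN1 went from 154 ± 9.60 to 56.8 ± 11.5 TPM in U87 and from 110 ± 1.10 to 44.5 ± 2.50 TPM in U251, with log2 changes of -1.44 ± 0.12 and -1.29 ± 0.10. LIG1 went from 68.4 ± 16.7 to 33.1 ± 6.22 TPM in U87 and from 58.8 ± 5.49 to 18.8 ± 4.50 TPM in U251. In U87, APLF and RNF146, which bind ADP-ribose chains, rose past the limit at D28WO, RNF146 from 59.7 ± 9.31 to 148 ± 10.1 TPM. HPF1, the cofactor that directs PARP1 and PARP2 to serine, stood at 71.3 to 84.4 TPM in U87 group means and 55.7 to 61.9 TPM in U251.

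NAD is the substrate of the catalytically active PARPs, and of 10 genes of its synthesis and use 1 rose past the fold limit at D28 in U87 (6.77% of all genes) and 2 in U251 (11.9%). CD38, an NAD-consuming ectoenzyme, was in both sets: it stood at 2.94 ± 1.54 TPM in Untreated U87 and 7.82 ± 1.78 TPM at D28, and at 1.78 ± 0.73 and 36.1 ± 3.08 TPM in U251 (log2 fold change 1.21 ± 0.28 and 3.77 ± 0.34, adjusted p = 0.0092 and 9.1e-07). At D14 CD38 fell in U87 to 0.476 ± 0.028 TPM (log2 change -1.35 ± 0.31, adjusted p = 0.033). NAPRT, which makes NAD from nicotinic acid, was the other U251 gene, at 7.06 against 20.7 TPM. NAMPT, the rate-limiting enzyme of NAD salvage, rose in U87 from 249 ± 26.7 to 448 ± 32.1 TPM at D28 (0.85 ± 0.12) and to 1124 ± 105 TPM at D28WO (2.17 ± 0.12, adjusted p = 2.5e-07). In U251 NAMPT stood at 115 ± 3.30 TPM in Untreated, 180 ± 6.58 TPM at D28 and 148 ± 4.74 TPM at D28WO. The list's median log2 fold change at D28 was 0.42 in U87 and 0.06 in U251, beside 0.19 and 0.16 for all genes. At D28WO in U87, 3 of the 10 rose past the fold limit (NAMPT, CD38 and NAPRT; 12.8% of all genes), 8 rose and 1, NMNAT2, fell on adjusted p (28.6% and 13.4%), and the median was 0.56 beside 0.25. In U251 at D28WO, 1, CD38, passed the fold limit (4.07% of all genes), 4 rose and 1 fell on adjusted p (14.3% and 13.4%), and the median was 0.26 beside 0.02.

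**Figure D5:**
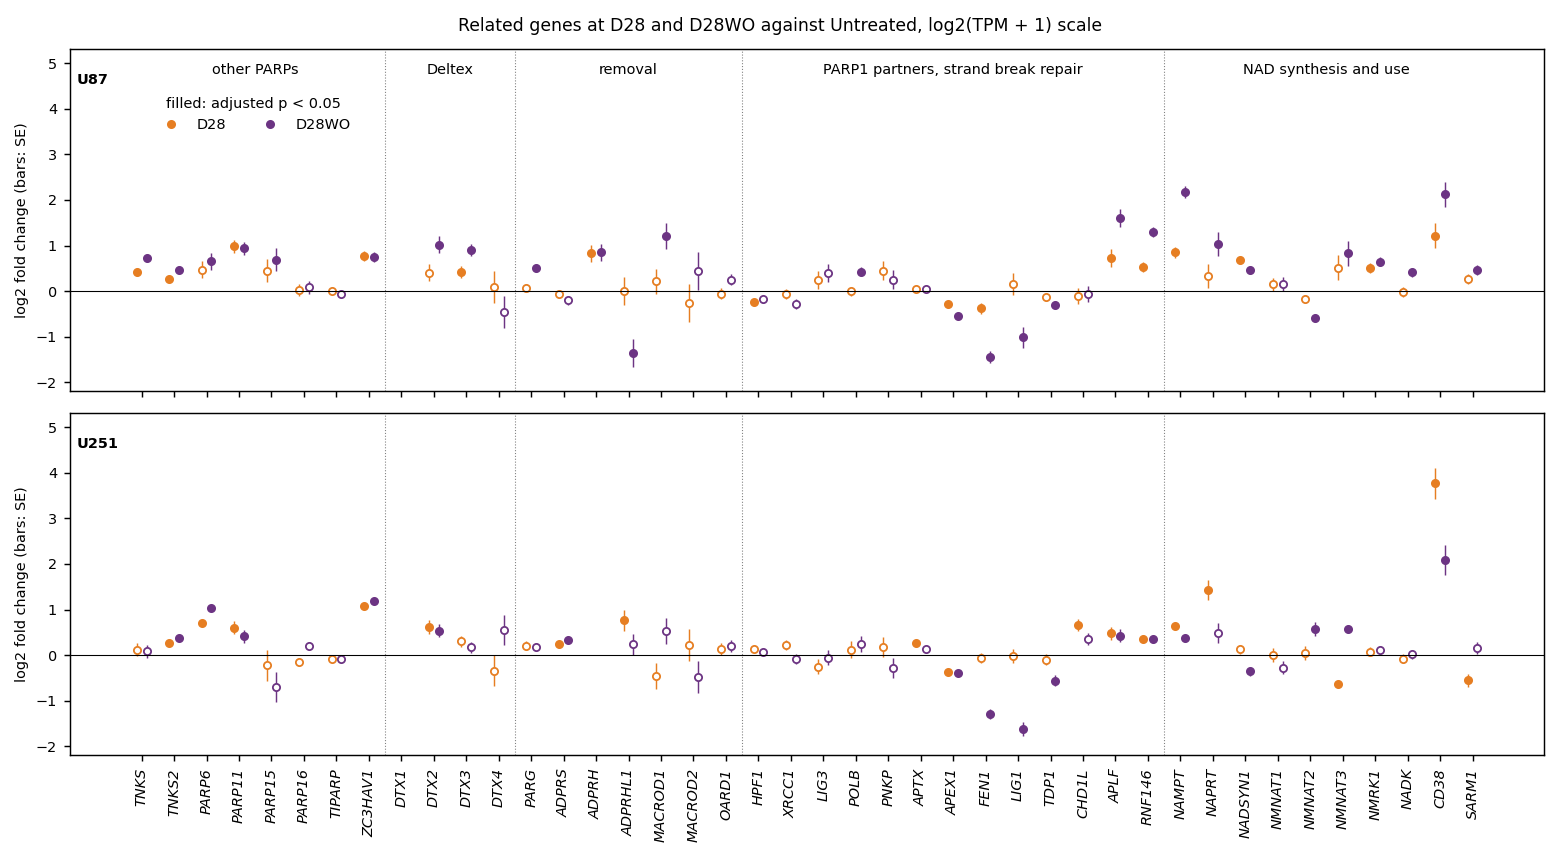
Log2 fold change at D28 and D28WO against Untreated with its standard error for genes of 5 related lists, in U87 (top) and U251 (bottom); filled points had an adjusted p under 0.05, and genes without a point were not tested in that line. FEN1 and LIG1 lie below -1 at D28WO in both lines, and CD38 is the highest point of U251, at 3.77 at D28.

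Correlations between members across the libraries of a line are given as a description, since the libraries share the 5 groups. In U87 (13 libraries) Pearson's r of log2(TPM + 1) was 0.98 for PARP14 with PARP9, 0.98 for PARP14 with DTX3L and 0.97 for PARP9 with DTX3L. The closest U87 pair was PARP12 with PARP14, at 0.99. In U251 (15 libraries) it was PARP10 with PARP12, at 0.97, a pair that also stood at 0.97 in U87. Other U251 values were 0.73 for PARP14 with PARP9, 0.71 for PARP14 with DTX3L, 0.75 for PARP9 with DTX3L, 0.57 for PARP14 with PARP10 and 0.60 for PARP14 with PARP12. Among the 12741 genes that averaged 5 TPM or more in each line, the 5 most like PARP12 by the smaller r of the lines were TRIM69, APOL6, GBP1P1, BATF2 and TAP2, with a smaller r of 0.98 or more in each case. For DTX3L they were BTN3A2, ZNFX1, PSMB9, DDX60 and TRIM69, with r from 0.95 to 0.98. PARP10 was most like PARP12, NLRC5, IRF9, IFIH1 and SLC15A3, and PARP3 most like ISG20, FAM124A, PLAAT4, USP30-AS1 and RNF213. For PARP14 they were CFB, MOB3C, CNIH3-AS1, RNF213 and MMAA, and for PARP9 CSF1, HEXD, MDK, OGFR and a gene known only by an identifier. PARP1 was most like AGPAT5, TUBA1B, MLEC, HACD3 and MGAT5, PARP8 most like DCLRE1C, PALB2, CNTLN, ZNF484 and LINC00265, and for PARP2 and PARP4 no gene had a smaller r above 0.851.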

How the data were processed

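RNA of 30 U87 and U251 cultures was sequenced from TruSeq RNA libraries (paired ends); 28 libraries were used, and 2 columns with one shared name were used in no step. The TPM values were deposited by the authors, whose processing notes name Trim Galore, STAR, featureCounts, edgeR and GRCh38. TPM removes depth, so no counting error is available. From these values log2(TPM + 1) was fitted per line with limma 3.58.1 (R 4.3.3, trend) over 5 groups in 1 model after a filter at a mean of 0.5 TPM, and p-values were adjusted by Benjamini-Hochberg over all genes. On simulated data the fit was tested before use. The ratio of DTX3L to PARP9 had an exact permutation test. All members are named; of related lists, those with the largest changes past the threshold at D28, with others chosen after their values were seen. The members and lists were chosen with earlier results of these data known. Alternatives covered the pseudocount, filters, scaling, groups fitted, a replicate block and left-out libraries. Replicates are described as separate cultures. One item is not reported here.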

Additional observations from a re-analysis of the deposited data

Results flagged for a closer look

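In 5 of 80 pairs of a member and a contrast, every library of one line moved one way and every library of the other line moved the opposite way under the same contrast. Of all genes tested in both lines, 6.59% of such pairs did so, and the count of 5 is near that share and no result about the members. The difference between the lines was not tested, since the tables were normalized separately. The share of all genes that separated opposite ways in the same contrast stands with each value. PARP14 at D14 against Untreated was 0.28 in U87 and -0.40 in U251 (6.41% of genes). PARP2 at D28WO was 0.24 in U87 and -0.40 in U251 against Untreated (6.22%), and 0.10 and -0.72 against D14 (6.99%). The U87 value against Untreated lay near the median of all genes there, 0.25. PARP8 at D28WO against D14 was 1.05 in U87 and -0.24 in U251 (6.99%). PARP9 at D28WO against D28 was -0.15 in U87 and 0.21 in U251 (8.85%). Of these, the U87 values of PARP14, PARP2 and PARP9 and the U251 value of PARP8 had adjusted p of 0.05 or more by limma.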

How the results depend on the processing

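Counts of members past both thresholds changed by no more than 1.5 times under another pseudocount, other filters, quantile or median-ratio scaling, and fits of only the 2 compared groups. With adjusted p as the only criterion they were 2 for D28WO against D28 in U87, and in U251 8, 5, 9 and 8 for the exposed groups in time order against Untreated (D28WO last), 4 for D14 against D3, 7 for D28 against D14, 7 for D28WO against D28 and 8 for D28WO against D14. Leaving out 1 library at a time gave 1 to 2 members for U251 D14 against Untreated (2 without D14 replicate 2) and 0 to 1 for U251 D28WO against D14 (0 without D14 replicate 3). For the DTX3L to PARP9 ratio the difference then ran from -0.34 to -0.15 in U87 and from 0.47 to 0.62 in U251. With a fit without D14 libraries, chosen after seeing the data, the counts for D3, D28 and D28WO were 5, 6 and 6 in U87 and 2, 2 and 3 in U251. With the replicate block, the U87 count for D28WO against D14 went from 6 to 5, as PARP10 came to 0.98, and no other count moved; same-numbered libraries did not deviate together, with a mean correlation of 0.00406 in U87 and 0.000891 in U251. Median-ratio scaling kept the U87 count for D28WO against Untreated at 6, but as 5 up and 1 down. PARP1 fell past the fold limit under it, and PARP8 no longer passed. Of 2100 member values under alternatives, 44 changed sign, all from main values of at most 0.21 in size with adjusted p of at least 0.162. The number of libraries, 2 or 3 a group, limits the precision.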
